A study of Homo sapiens with 24 samples.

Results

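The genes of the AP-1 transcription factors were examined as 10 members, namely the Fos family (FOS, FOSB, FOSL1, FOSL2), the Jun family (JUN, JUNB, JUND) and the related factors BATF, BATF3 and ATF3. A region belonged to a member when the deposited annotation named the gene as overlapping the region or as its left or right neighbour within 10 kb. Of the 10 genes, 9 had at least 1 region and BATF3 had none in any of the 6 tables. In the direct comparison of shANCO1 with shCTRL this gave 38 of 50284 regions in 10A and 36 of 44790 in DCIS. Among regions enriched over input, the members had 31 of 28607 in 10A shANCO1 cells, 16 of 15490 in 10A shCTRL cells, 22 of 16692 in DCIS shANCO1 cells and 16 of 15482 in DCIS shCTRL cells.

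H3K27ac, acetylation of histone H3 on lysine 27 that marks active promoters and enhancers, was measured by ChIP-seq, and fragmented chromatin without immunoprecipitation served as input. The 24 libraries formed 8 groups of 3, crossing the lines 10A (MCF10A, immortalized human mammary epithelium) and DCIS (MCFDCIS, a line from xenografts of oncogene-transfected 10A cells), the hairpins shANCO1 and shCTRL, and immunoprecipitated or input DNA. Both hairpins were delivered by lentivirus followed by puromycin selection, shCTRL being directed at GFP, and shANCO1 at the mRNA of ANKRD11, the gene that encodes ANCO1. All groups shared one growth medium with horse serum, EGF, hydrocortisone, insulin and cholera toxin, and neither line carries HER2 amplification or expresses estrogen or progesterone receptor. The study's own H3K27ac plots came from 1 shANCO1 line, so a single hairpin stands for the knockdown, and nothing states whether the 3 libraries of a group were separate cultures.

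AP-1 factors are basic leucine zipper proteins that bind DNA as pairs. Fos proteins pair with Jun proteins, Jun proteins can also pair with each other, and BATF and ATF3 join Jun partners as well. Such pairs bind the 7-base element TGAGTCA or the related 8-base cyclic AMP response element, and in epithelial cells they are known for activating enhancers in response to growth factors, stress and oncogenic RAS signalling. Several of the genes carry AP-1 or cyclic AMP response elements of their own.

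Each region came with 1 log2 fold change, that of a representative window whose place inside the region is not given, and with a false discovery rate (FDR) from the authors' csaw test, into which 3 libraries per group entered. A region was called up or down at an FDR below 0.05. Values per library were not used here, so replicate spread and depth were unknown and no SD is given. The median log2 fold change over the whole direct table was 0.76 in 10A and 0.52 in DCIS, and the unstated normalization sets the zero of each table. Promoters of 5 of 8 basal epithelial markers were enriched over input in 10A shANCO1 cells and 4 of 8 in 10A shCTRL cells, against 6 of 8 in both DCIS groups. The luminal receptor genes ESR1 and PGR had 0 of 2 enriched promoters in every group. Of 6 markers of other cell types, PECAM1 and GFAP had an enriched promoter in shANCO1 cells of both lines, and PECAM1 alone in shCTRL cells. H3K27ac at ANKRD11 does not measure the knockdown, so the targeted gene gives no check of the labels in these data.

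The elements that AP-1 pairs bind were searched in the regions and promoters of the members, and the following stretches of hg38, written 5′ to 3′, show where they lay. The first set shows 160 bases on the plus strand around matches to TGAGTCA or its reverse complement TGACTCA, in capitals, inside bases that were called up in both lines. The JUNB stretch is chr19:12783027-12783186, upstream of JUNB and inside an intron of HOOK2 in GENCODE. The ATF3 stretch is chr1:212596436-212596595 in an ATF3 intron, the FOSL1 stretch is chr11:65899309-65899468 in a FOSL1 intron, and the FOSL2 stretch is chr2:28408902-28409061 in a FOSL2 intron.
JUNB upstream: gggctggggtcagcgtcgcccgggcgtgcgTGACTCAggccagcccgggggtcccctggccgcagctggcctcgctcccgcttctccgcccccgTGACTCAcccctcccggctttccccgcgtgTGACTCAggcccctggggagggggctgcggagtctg
ATF3 intron: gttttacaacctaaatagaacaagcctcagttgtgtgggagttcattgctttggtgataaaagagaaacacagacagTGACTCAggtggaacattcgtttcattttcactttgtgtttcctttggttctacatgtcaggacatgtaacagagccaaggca
FOSL1 intron: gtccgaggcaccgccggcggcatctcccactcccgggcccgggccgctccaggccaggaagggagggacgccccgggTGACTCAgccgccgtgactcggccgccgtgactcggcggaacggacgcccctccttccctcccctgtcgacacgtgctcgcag
FOSL2 intron: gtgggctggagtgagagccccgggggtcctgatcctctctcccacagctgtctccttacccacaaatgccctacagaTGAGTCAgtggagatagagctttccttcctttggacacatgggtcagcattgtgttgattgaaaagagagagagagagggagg

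The second set shows the 250 bases before the RefSeq start site (GRCh38.p14) on the gene's own strand for the members whose promoter held a cyclic AMP response element, searched as TGACGTCA or TGACATCA on either strand and in capitals. JUN is chr1:58784048-58784297 on the minus strand, with the element starting at -67. ATF3 is chr1:212565157-212565406 on the plus strand, before its upstream start site, with the element at -123, and JUND is chr19:18281623-18281872 on the minus strand, with the element at -200.
JUN promoter: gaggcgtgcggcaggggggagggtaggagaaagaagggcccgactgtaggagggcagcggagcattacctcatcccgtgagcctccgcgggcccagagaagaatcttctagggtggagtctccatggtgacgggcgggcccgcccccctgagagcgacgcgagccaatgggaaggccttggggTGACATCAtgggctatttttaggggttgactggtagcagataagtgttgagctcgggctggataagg
ATF3 upstream promoter: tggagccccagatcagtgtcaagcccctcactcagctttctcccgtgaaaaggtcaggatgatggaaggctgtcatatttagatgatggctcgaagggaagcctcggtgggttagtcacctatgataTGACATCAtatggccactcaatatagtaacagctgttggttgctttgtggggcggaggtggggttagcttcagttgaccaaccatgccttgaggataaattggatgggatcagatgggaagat
JUND promoter: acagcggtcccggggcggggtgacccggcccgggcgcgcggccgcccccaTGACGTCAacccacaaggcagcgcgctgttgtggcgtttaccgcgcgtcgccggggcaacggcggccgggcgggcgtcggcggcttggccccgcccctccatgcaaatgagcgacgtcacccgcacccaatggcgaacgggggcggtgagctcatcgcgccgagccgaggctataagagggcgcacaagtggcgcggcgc

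The RefSeq table held 9 promoters of 8 members, each covering 250 bases before to 50 bases after a start site, and FOSL1 and BATF3 had no entry. No ATF3 entry covered the main start site used elsewhere here, so that promoter was not searched. The cyclic AMP response element was in 3 of the 9, against 4.44% of 35116 promoters in the table. The 7-base AP-1 element was in 1 of the 9, that of FOSL2 at +4, against 4.95% of all. The JUN octamer lay inside a tested region of both lines, whereas those of JUND and ATF3 lay outside every AP-1 gene region of the direct comparisons. A match describes the letters in the window and does not show that a factor bound there.

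H3K27ac rose at AP-1 genes in 10A shANCO1 cells and at fewer of them in DCIS shANCO1 cells. In 10A, 26 of the 38 regions were up and 0 were down, which is 68.4%, where 43.6% of all tested regions were up and 0.225% were down. All 9 members with a region had at least 1 region up, and 74.3% of all annotated genes did. In DCIS, 10 of the 36 regions were up and 0 were down, which is 27.8%, where 23.6% of all regions were up and 4.86% were down. The genes with an up region in DCIS were FOSB, FOSL1, FOSL2, JUNB and ATF3, 5 of the 8 with a region, against 32.2% of all genes. These shares of genes are not like for like, since AP-1 genes had 1 to 7 regions each in 10A and 1 to 9 in DCIS, and the median gene had 2. The 10A and DCIS tables were tested separately and the difference between the lines was not tested.

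The sizes of the changes lay close to those of the whole tables. In 10A the median log2 fold change of AP-1 regions was 0.88 (range 0.12 to 1.71), and 25 of 38 regions lay above the table median of 0.76. In DCIS the median was 0.48 (range -1.24 to 2.31), and 17 of 36 lay above the table median of 0.52. Regions called up had a median of 1.11 in 10A and 1.89 in DCIS, beside 1.06 and 1.76 for all up regions. When a region also had to lie at least 1 log2 unit above the table median, 0 of the 38 10A regions and 8 of the 36 DCIS regions qualified. The share of all regions passing this rule was not counted, so the contrast between lines cannot be read as particular to AP-1 genes. AP-1 regions were wide, with a median of 2050 bp in 10A and 1650 bp in DCIS against 1000 bp and 900 bp for all regions, and a wide region holds more tested windows.

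Promoter regions of the members were then counted apart. Of regions annotated to a member's promoter, 16 of 22 were up in 10A, where 50.8% of all promoter regions and 37.2% of all other regions were up. In DCIS 6 of 21 were up, where 16.3% of promoter regions and 31.3% of other regions were up. Of regions that contained a member's main start site, 6 of 6 were up in 10A (FOS, FOSL1, FOSL2, JUN, JUNB and ATF3) and 0 of 3 in DCIS (FOS, JUN and JUNB). The share of up regions among all regions with a start site was not counted, so these counts have no background beside them. In DCIS the up region over the body of FOSL1 ended just short of its start site. Among regions that overlapped no other annotated gene, 11 of 16 were up in 10A and 6 of 14 in DCIS, a restriction chosen after the data were seen. Of all regions that overlapped at most 1 gene, 41.5% were up in 10A and 26.1% in DCIS.

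**Figure D1:**
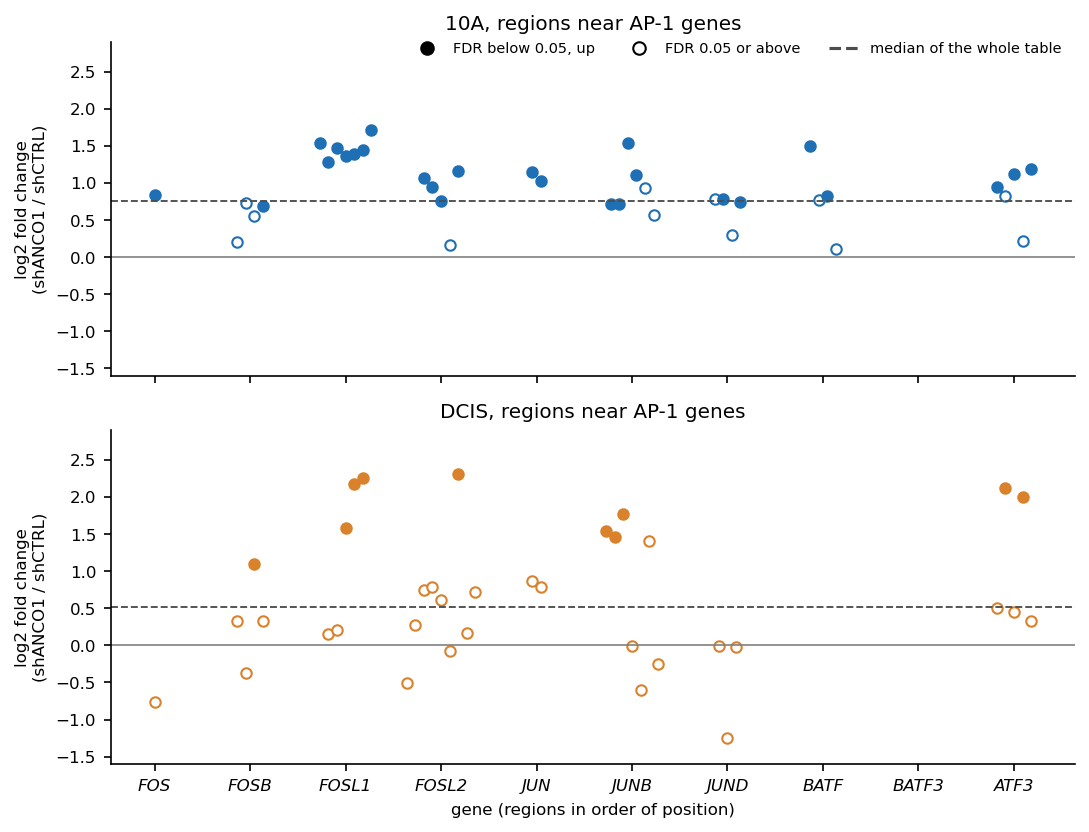
Log2 fold change of H3K27ac (shANCO1 over shCTRL, vertical axis) for every region of each AP-1 gene (horizontal axis, regions in genomic order) in 10A and DCIS, with filled points for regions up at an FDR below 0.05, open points for the others and a dashed line at the median of the whole table. All 38 regions of 10A lie above 0, as do 91.8% of all tested 10A regions. In DCIS 26 of the 36 regions lie above 0, beside 66.9% of all tested DCIS regions. BATF3 has no point in either line.

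The Fos family held the regions with the greatest rise in both lines. FOSL1 encodes FRA-1, a Fos protein that lacks the strong activation domain of FOS and is abundant in basal-like breast cancer cells. In 10A shANCO1 cells 7 of its 7 regions were up, with log2 fold changes from 1.28 to 1.71, and 124 of their 134 windows were up. In DCIS shANCO1 cells 3 of 5 regions were up. The steepest FOSL1 change lay upstream of the gene, at chr11:65901601-65904400 in 10A (log2 fold change 1.71, FDR 1.67e-05, midpoint at -2612 bp from the start site) and at chr11:65901601-65904200 in DCIS (2.25, FDR 7.25e-08), where 24 of 24 windows were up. Between it and the gene, the single-window region chr11:65900901-65901100 in DCIS had 2.17 (FDR 0.00025), and its 10A counterpart chr11:65900801-65901300 had 1.44 (FDR 0.00129). The far upstream region overlapped 1600 bp of enriched chromatin in 10A shANCO1 cells and 1300 bp in DCIS shANCO1 cells, and none in the shCTRL cells of either line.

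The body of FOSL1 also rose in both lines. The region with the lowest FDR among the members' 10A regions was chr11:65898101-65900500, which holds the FOSL1 start site and the stretch printed above (log2 fold change 1.39, FDR 4.47e-08, 22 of 23 windows up). Its DCIS counterpart, chr11:65896401-65900200, had a log2 fold change of 1.58 (FDR 0.000259, 26 of 37 windows up). The promoter region with the most windows in 10A, chr11:65895401-65898000, had 1.36 (FDR 1.67e-05), with 25 of 25 windows up. At the 3′ end regions were called in 10A and not in DCIS. The regions at chr11:65887601-65890400 and chr11:65890301-65893100 had log2 fold changes of 1.53 (FDR 1.81e-05) and 1.28 (FDR 4.44e-05) in 10A, and their DCIS counterparts had 0.16 (FDR 0.946) and 0.21 (FDR 0.895). These 3′ regions also overlap CCDC85B and FIBP, so they cannot be assigned to FOSL1 alone.

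FOSL2 encodes FRA-2, another Fos protein without the FOS activation domain. H3K27ac rose inside the gene in both lines, at chr2:28406401-28410400 in 10A (log2 fold change 1.16, FDR 6.84e-05, 28 of 38 windows up) and at chr2:28406201-28410300 in DCIS (2.31, FDR 3.56e-07, 36 of 39 windows up). That region covers a coding exon and introns, with its 10A midpoint 15542 bp from the start site, and includes the FOSL2 stretch printed above. The DCIS value was the largest of any AP-1 gene region. At the promoter, chr2:28389601-28394300 in 10A was up at 0.94 (FDR 0.00054, 36 of 45 windows), and the region next to it, chr2:28394201-28398800, was up at 0.75 (FDR 0.0012). In DCIS the corresponding regions, chr2:28389501-28392700 and chr2:28393001-28396800, had 0.27 (FDR 0.888) and 0.75 (FDR 0.25), with 0 windows up in either. Only 1 of 9 FOSL2 regions was up in DCIS, against 4 of 5 in 10A.

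FOS, the immediate-early gene that gave the family its name, had 1 region in each line. In 10A chr14:75277201-75279600, which holds the start site, had a log2 fold change of 0.84 (FDR 0.0123, 18 of 23 windows up), close to the table median. In DCIS chr14:75277401-75279700 had -0.77 (FDR 0.859), with 0 of 22 windows up. FOSB, an immediate-early gene with a shorter splice product, had 4 regions in each line, of which 1 was up in each. Its promoter region, chr19:45468301-45470300, had 0.74 (FDR 0.175) in 10A and its counterpart chr19:45468201-45470400 had -0.38 (FDR 0.987) in DCIS. The up region lay 3′ of FOSB, at chr19:45478001-45479300 in 10A (0.69, FDR 0.0143) and at chr19:45477901-45479700 in DCIS (1.10, FDR 0.0252). All 10A regions of FOSB overlap ERCC1, the neighbouring DNA repair gene, so the gain there cannot be told apart from one at ERCC1.

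All 3 Jun genes had regions up in 10A, and of these JUNB alone had regions up in DCIS. JUNB encodes a Jun protein that activates AP-1 elements more weakly than JUN and is induced early by growth factors. Upstream of JUNB 3 neighbouring regions were up in both lines. The farthest, chr19:12781901-12784800, had log2 fold changes of 0.72 in 10A (FDR 0.0169) and 1.54 in DCIS (at chr19:12782101-12784800, FDR 0.00109). The middle one, chr19:12784701-12787500, had 0.71 in 10A (FDR 0.000861) and 1.46 in DCIS (at chr19:12784701-12787400, FDR 0.00121). The nearest, chr19:12787901-12791300, had 1.55 in 10A (FDR 0.000414) and 1.77 in DCIS (at chr19:12787801-12789700, FDR 0.0385, 2 of 16 windows up). All 3 also overlap HOOK2 in the deposited annotation.

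The JUNB gene itself was called in 10A and not in DCIS. The region chr19:12791201-12794600, which holds the start site and the whole gene, was up in 10A (1.11, FDR 0.000191, 23 of 32 windows up). In DCIS chr19:12790301-12793600 had -0.0038 (FDR 0.998), with 0 of 28 windows up. In DCIS the JUNB regions that were up thus lay upstream, while in 10A they ran from upstream through the gene.

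JUN, the family's strongest activator and the partner of most Fos proteins, was up in both of its 10A regions. The region with the start site and the JUN promoter stretch printed above, chr1:58783001-58786300, had 1.03 (FDR 0.000924, 8 of 30 windows up), and chr1:58779801-58783100 had 1.15 (FDR 0.000544). In DCIS neither was called, at 0.79 (chr1:58782701-58785900, FDR 0.0887, 5 of 29 windows up) and 0.87 (chr1:58781901-58782400, FDR 0.231). Both stretches also overlap the non-coding genes LINC01135 and LOC101926907. JUND, which is expressed more evenly than the other Jun genes, had 2 of 4 regions up in 10A and 0 of 3 in DCIS. Over its coding exon, chr19:18279201-18281500 had 0.78 in 10A (FDR 0.0182, 5 of 19 windows up), and chr19:18279301-18281300 had -1.24 in DCIS (FDR 0.23, 0 of 12 windows up), the lowest value of any AP-1 gene region. The promoter region chr19:18281901-18283100 was called in neither line, at 0.30 in 10A (FDR 0.288) and -0.03 in DCIS (FDR 0.986). Upstream of JUND, chr19:18291401-18293800 had 0.74 in 10A (FDR 0.0149), and the DCIS region over it, not annotated to JUND, had -1.34 (FDR 0.0611).

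**Figure D2:**
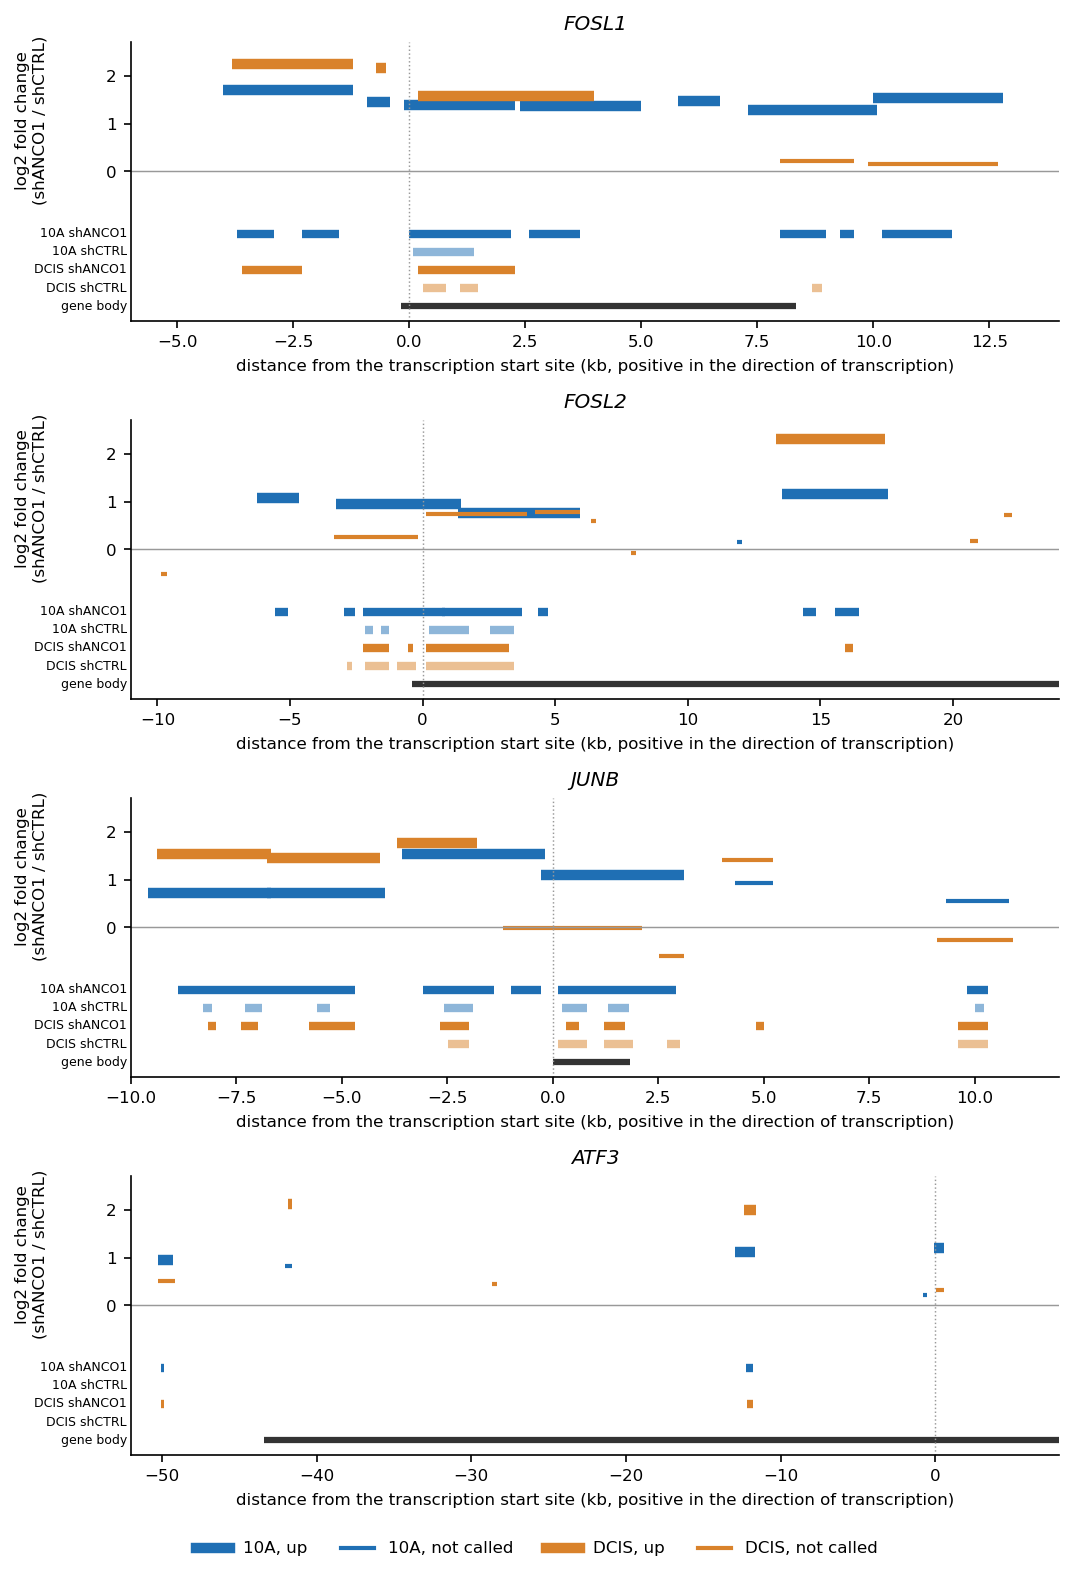
Regions around FOSL1, FOSL2, JUNB and ATF3 by distance from the main start site in kb (horizontal axis, positive in the direction of transcription), drawn at their log2 fold change (shANCO1 over shCTRL, vertical axis) as thick bars when up and thin bars when not called, with the regions enriched over input in each of the 4 groups and the gene body as rows beneath. The regions up in DCIS lie upstream of and inside FOSL1, upstream of JUNB, and inside FOSL2 and ATF3, and the JUNB and FOSL2 start sites carry no thick DCIS bar.

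ATF3, a stress-induced factor that can repress as well as activate, had 3 of 5 regions up in 10A and 2 of 5 in DCIS. An intronic region upstream of its main start site rose in both lines, at chr1:212595801-212597100 in 10A (log2 fold change 1.11, FDR 0.00129) and at chr1:212596401-212597200 in DCIS (2.01, FDR 1.19e-06, 6 of 7 windows up). This region includes the ATF3 stretch printed above. It was enriched over input in the shANCO1 cells of both lines and in neither shCTRL group. Near the upstream start site, 1643 bp downstream of it, chr1:212566901-212567200 rose in DCIS (2.12, FDR 0.000692, 2 of 2 windows up), and its 10A counterpart had 0.83 (FDR 0.0593). At the main start site the call was made in 10A instead, with chr1:212608701-212609300 up in 10A (1.19, FDR 0.00916) and the DCIS region chr1:212608801-212609300 at 0.33 (FDR 0.671). The region beyond the upstream end of the gene, chr1:212558501-212559500, was up in 10A (0.95, FDR 0.0231) and had 0.51 in DCIS (FDR 0.676).

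BATF and BATF3 act mainly in lymphoid and dendritic cells, where BATF pairs with Jun proteins next to IRF factors. BATF had 4 regions in 10A, of which 2 were up. One was the single-window promoter region chr14:75523901-75524100 (1.50, FDR 0.00138) and the other the intronic region chr14:75533501-75537600 (0.82, FDR 0.0236, 15 of 40 windows up). Over input, BATF was enriched across 3100 bp in 10A shANCO1 cells and 700 bp in 10A shCTRL cells, with log2 values up to 4.13 and 3.57. No DCIS table had a region at BATF. The tested region nearest to BATF3 lay 27361 bp away in 10A (0.49, FDR 0.26) and 20617 bp away in DCIS (0.43, FDR 0.473).

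Tests against input showed which members carried the mark in each group. Every region in the 10A tables and in the DCIS shANCO1 table was enriched (100%), as were 15480 of the 15482 regions in the DCIS shCTRL table (also 100% after rounding), so presence in a table was itself the call. Enriched members numbered 9 and 7 in 10A shANCO1 and shCTRL cells, and 8 and 7 in DCIS. The share of all genes with an enriched region was not counted, so these numbers cannot be read as particular to AP-1 genes. In 10A the enriched length at AP-1 genes was 36800 bp in shANCO1 cells and 9500 bp in shCTRL cells, while the whole tables covered 25252500 bp and 9035200 bp. In DCIS it was 15900 bp and 11200 bp, while the whole tables covered 11870100 bp and 10958100 bp. The median log2 enrichment of the members was 3.47 and 2.58 in 10A shANCO1 and shCTRL cells, where all regions had 3.40 and 3.32, and 4.24 and 4.02 in DCIS, where all regions had 4.47 and 4.09. These groups were tested separately, and the difference in length between them was not tested.

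By gene, JUNB, FOSL2 and FOSL1 had the longest enriched stretches in 10A shANCO1 cells, at 9900 bp, 8800 bp and 7700 bp, against 2900 bp, 3000 bp and 1300 bp in shCTRL cells. JUN had 3200 bp in 10A shANCO1 cells and no enriched region in shCTRL cells. In DCIS, FOSL1 had 3400 bp in shANCO1 cells and 1100 bp in shCTRL cells, JUNB had 4100 bp and 2900 bp, and JUN had 1100 bp and 300 bp. FOSL2 and FOS had more in shCTRL cells of DCIS. FOSL2 had 4600 bp in shANCO1 cells and 5100 bp in shCTRL cells, the latter all around its promoter, and FOS had 300 bp and 400 bp. ATF3 was enriched in neither shCTRL group and at 700 bp and 600 bp in 10A and DCIS shANCO1 cells. The JUND promoter was enriched in all groups, over 900 bp and 700 bp in 10A shANCO1 and shCTRL cells and over 800 bp in both DCIS groups.

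**Figure D3:**
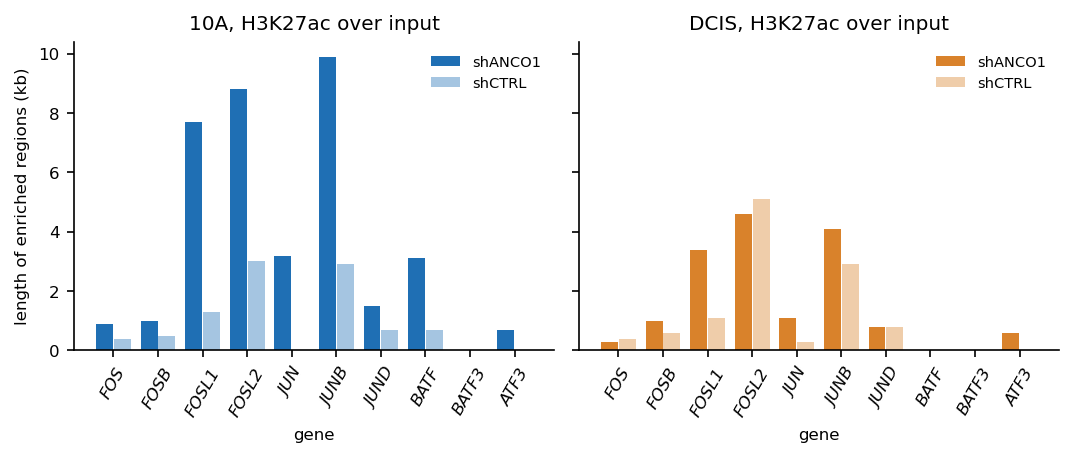
Summed length in kb of the regions enriched for H3K27ac over input (vertical axis, from 0) at each AP-1 gene (horizontal axis) in shANCO1 (dark bars) and shCTRL cells (light bars) of 10A and DCIS, each bar being 1 pooled value of 3 libraries without an error. In 10A the shANCO1 bar is the longer at all 9 genes that have a bar, and in DCIS FOS and FOSL2 have the longer bar in shCTRL cells.

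The gains were then placed against these marked regions. Of the 26 up regions in 10A, 10 overlapped an enriched region in both groups, 12 only in shANCO1 cells and 4 in neither. Of the 10 up regions in DCIS, 3 overlapped one in both groups, 5 only in shANCO1 cells and 2 in neither. This split was not counted over all up regions of either line, so it cannot be read as particular to AP-1 genes. Enriched regions of the whole tables numbered 28607 in 10A shANCO1 cells and 15490 in 10A shCTRL cells, beside 16692 and 15482 in DCIS. The DCIS regions marked in both groups were the FOSL1 gene region, the nearest JUNB upstream region and the FOSB flank. Those marked only in shANCO1 cells were the FOSL1 upstream region, the FOSL2 region inside the gene, the ATF3 intron and the other JUNB upstream regions. The shANCO1 libraries enter both tests, so an up region and a shANCO1 mark are not independent.

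Counterparts between the lines were the regions with the longest overlap. Of the 38 10A regions, 10 were up in both lines, 12 were up in 10A and not called in DCIS, and 4 were up in 10A with no DCIS region. The ATF3 region near the upstream start site, 1 of the 38, was up in DCIS but not called in 10A. The FOSL1 regions chr11:65895401-65898000 and chr11:65898101-65900500 of 10A share 1 DCIS counterpart, chr11:65896401-65900200, which counts for each of them. A further 6 were called in neither line and 5 were not called in 10A and had no DCIS region. The AP-1 gene regions up in both lines belonged to FOSL1, FOSL2, JUNB, ATF3 and FOSB. For them the 10A values ran from 0.69 to 1.71 and the DCIS values from 1.10 to 2.31. Since a fold change is relative to a zero that differs between tables, these ranges are given side by side and not compared.

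**Figure D4:**
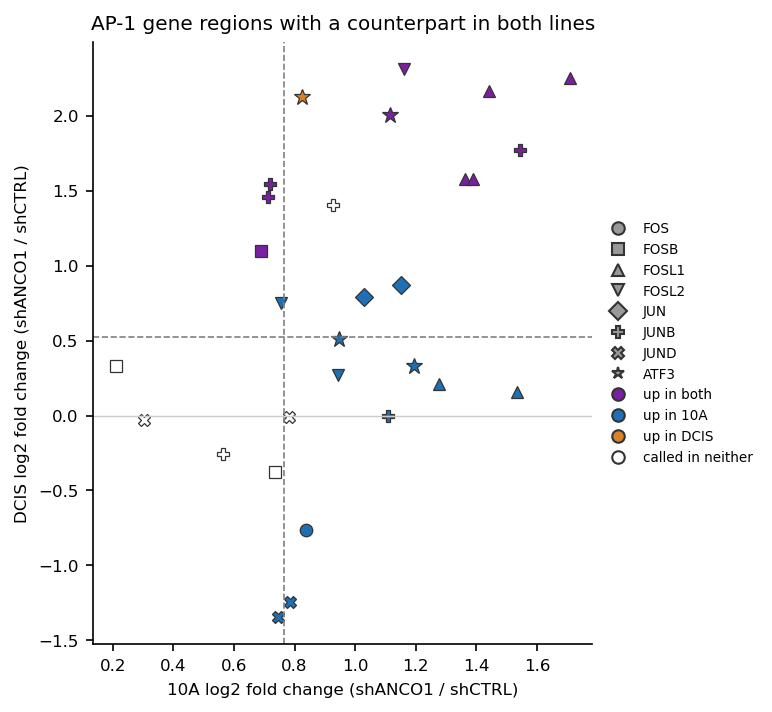
Log2 fold change (shANCO1 over shCTRL) in 10A (horizontal axis) against DCIS (vertical axis) for AP-1 gene regions that overlap between the tables, with a symbol for each gene, a colour for the line in which the region was up and dashed lines at the median of each whole table. FOSL1, FOSL2, JUNB, FOSB and ATF3 points up in both lines reach 1.10 or more in DCIS. The FOS region and the region over the JUND coding exon lie below 0 in DCIS and above 0.7 in 10A. The JUND promoter region chr19:18281901-18283100 is at 0.30 in 10A and -0.03 in DCIS.

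Genes around AP-1 were followed as 2 lists. The first held 10 other bZIP factors that pair with AP-1 proteins or bind related elements. In 10A, 24 of their 44 regions were up and 0 down (54.5%), at 9 of 10 genes, where 43.6% of all regions were up and 74.3% of all genes had an up region. In DCIS 4 of 46 were up (8.70%) and 2 down, where 23.6% of all regions were up and 4.86% down, so the list's share of up regions was below that of the table. The lowest FDR in DCIS was at chr11:65006101-65008200 beside BATF2, a BATF relative (log2 fold change 4.19, FDR 6.99e-16, 20 of 20 windows up). Next was a region annotated to MAF but outside the gene in GENCODE (3.34, FDR 1.36e-06, 2 of 2 windows up). NFE2L2, the oxidative stress regulator, had a region down in DCIS (-2.10, FDR 0.00045). In 10A low FDRs were beside BATF2 (1.23, FDR 0.000185) and at the small MAF protein gene MAFF (1.30, FDR 0.000225).

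The second list held 10 kinases and factors that act upstream of AP-1. In 10A, 12 of their 40 regions were up and 0 down (30%), below the 43.6% of all regions, and in DCIS 6 of 31 were up and 0 down (19.4%), below 23.6%. In 10A the lowest FDRs were at SRF, which drives FOS through its promoter (1.33, FDR 0.000972), the JNK pathway kinase gene MAP3K1 (1.08, FDR 0.00133) and the p38 gene MAPK14 (0.77, FDR 0.00197). In DCIS they were at MAPK8, which encodes a JNK protein (1.68, FDR 0.00241), beside MAP2K7 (2.02, FDR 0.00295) and at MAP2K4 (1.70, FDR 0.00834). The products of MAP2K7 and MAP2K4 activate the JNK protein. The related MAPK9 and MAP3K1, of the same pathway, were not called in DCIS, at -0.80 (FDR 0.344) and 0.67 (FDR 0.328). The median log2 fold change in DCIS was 0.26 for the first list and 0.24 for the second, beside 0.52 for all regions.

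AP-1 elements within the members' own regions were counted last. The 7-base element occurred 0.276 times per kb in AP-1 gene regions of 10A and 0.274 times in DCIS, beside 0.310 and 0.279 for all regions. In DCIS the 10 up regions held 12 matches (0.574 per kb) and the 26 regions not called held 4 (0.107 per kb), where all up regions of the table had 0.438 per kb. In 10A the order was the other way. The 26 up regions held 17 matches (0.264 per kb) and the 12 not called held only 4 (0.342 per kb), where all up regions had 0.316 per kb. The JUNB upstream regions held 6 distinct matches. Without JUNB the up regions had 0.441 per kb in DCIS and 0.212 per kb in 10A, and the regions not called were not recounted without it. Of the farthest JUNB region's 4 matches, 3 fall in the JUNB stretch printed above. The FOSL1 upstream region, up in both lines, had 0 matches. A further count took the 500 bases around each region's midpoint, which reach outside regions narrower than that. The element was present there in 26.3% of AP-1 gene regions in 10A and 13.9% in DCIS, beside 18.3% and 15.4% of all regions. Among up regions of 10A it was in 26.9% at AP-1 genes and 20.3% over the whole table. Among up regions of DCIS these shares were 20% and 25.5%. The 20% rests on 2 of 10 regions, and for the ATF3 region chr1:212566901-212567200 the match lay outside the region itself.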

How the data were processed

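H3K27ac ChIP-seq and input libraries of 10A and DCIS cells, 3 per group, were taken as the labels group them. The authors used BWA and Rsubread for alignment to GRCh38, samtools for sorting and deduplication, and csaw for differential binding. The deposited log2 values give 1 representative window of a region, the deposited FDR (adjusted p-value) was computed by the authors over each table, and the deposited window numbers count tested windows. Each table pools the 3 libraries of a group, so no library's depth or spread could be used. The FDR belongs to the whole region and does not measure the spread of its representative log2 value. Normalization, window filters and the pairing of inputs are not given in the sources used here. These tables are the authors' own comparisons and were used as the data.

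From them, regions naming a member were extracted and counted at an FDR below 0.05 with the deposited direction. All 10 members were named, each with its promoter region with the most windows and its region of lowest FDR, and the 3 genes of lowest FDR in each other list, of which 1 is not reported here. The rule's 3 largest called regions per line and direction are included. Members and lists were chosen with earlier results of these data known. Start sites came from GENCODE release 44, promoters from RefSeq (GRCh38.p14) and sequences from hg38. Motifs were matched with Python 3.11.15 and pandas 2.3.3, by code tested on simulated data. Alternatives were other FDR limits, minimum fold changes, window minimums, overlap rules and centring.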

Additional observations from a re-analysis of the deposited data

How the results depend on the processing

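The count of AP-1 gene regions up in 10A (26) fell to 16 when the log2 fold change also had to reach 1 and to 0 when at least 1 log2 unit above the table median was required. The DCIS count (10) was 10 and 8 under those rules, and the share of all regions passing them was not counted. An FDR below 0.01 gave 18 and 8, and below 0.1 gave 29 and 11, in 10A and DCIS. Leaving out regions that overlap another gene, chosen after the data were seen, gave 11 of 16 in 10A and 6 of 14 in DCIS. Taking every region within 100 kb of a start site, also chosen then, gave 73 of 145 up in 10A. In DCIS that rule gave 38 up and 4 down of 136. Such rules change the set of regions, so their counts cannot be compared directly with 26 of 38 and 10 of 36. With at least 5 windows required, enriched regions numbered 20 and 6 in 10A shANCO1 and shCTRL cells and 10 and 7 in DCIS. At an FDR below 1e-10 the shCTRL counts were 5 in 10A and 10 in DCIS.

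With the promoter region of lowest FDR in place of the one with most windows, JUNB in DCIS changed from -0.0038 to 1.46 and ATF3 in DCIS from 0.33 to 2.12, both then called up. FOSB in DCIS, not called under either choice, changed from -0.38 to 0.33. Relative to the table median, promoter values lay above it for 8 of 9 members in 10A and 3 of 8 in DCIS. The other alternatives kept the counts within 1.5 times. No paired analysis was possible because the tables hold no values per library, and for the same reason no replicate could be left out.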

Other observations

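Regions beyond those annotated to the members, with midpoints within 100 kb of a member's start site, were counted after the data were seen. The counts were summed over members, so a region near both ATF3 and BATF3 counts for each of them. In 10A 48 of 108 were up and 0 down (44.4%), and in DCIS 28 of 101 were up and 4 down (27.7%), beside 43.6% and 23.6% of all regions up. Upstream of FOSL1, chr11:65914701-65919000 rose in DCIS (log2 fold change 2.03, FDR 8.02e-09), with its midpoint at -16462 bp from the FOSL1 start site and overlapping DRAP1 and C11orf68. Downstream of JUN, where no annotated region was called in DCIS, chr1:58752401-58756500 rose in DCIS (1.56, FDR 0.00231), with its midpoint 29597 bp from the start site. In 10A chr1:58726501-58728300, 56647 bp from it, had 1.47 (FDR 8.07e-05). Which gene these regions act on was not measured.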
